A study of Homo sapiens with 4 samples.

Results

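The immunoproteasome and the machinery that loads its peptides onto class I molecules were followed through 10 genes: PSMB8, PSMB9, PSMB10, PSME1, PSME2, ERAP1, TAP1, TAP2, TAPBP and NLRC5. They are 10 of the 63651 rows of the deposited expression table, found by gene symbol, and where a symbol had several rows the row with the highest mean of the 2 columns was taken. The genes were chosen with earlier results of these data known and were selected on the same 2 columns that are compared here. Their differences between the columns are therefore a description, with no test.

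The cells were BJ-5ta, a telomerase-immortalised line of human foreskin fibroblasts, in a derivative that carries a doxycycline-inducible FOXA2 transgene. FOXA2 is a forkhead transcription factor of endoderm and liver. Such derivatives were isolated as clonal lines, and whether all samples come from the same clone is not stated. All cultures grew with 10% fetal bovine serum, penicillin and streptomycin, hygromycin B, puromycin and basic fibroblast growth factor. The labels give 2 uninduced samples without doxycycline and 2 induced samples with 0.5 µg/ml doxycycline. The deposited column of the induced cells carries the tag 4D in its name, which the labels do not explain. They state neither the length of induction nor which cultures received the 200 µM mimosine (a G1 blocker) that the protocol also names. Cells given the drug but lacking the transgene were not analysed here, so the drug and the factor cannot be told apart.

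The table holds 1 FPKM value (fragments scaled to transcript length and library size) per gene for each group, with a lower and an upper bound of unstated level. Values of single samples are not in it, so the spread between replicates is unknown and nothing here carries a p-value. The words rose and fell are used where the bounds of the 2 columns are apart, and genes reaching 1 FPKM in at least 1 column were kept. Log2 differences compare induced with uninduced after adding 1 to each FPKM, so the change of low genes is understated, and at least 2-fold means 1 or more on this scale. In bulk RNA, fewer cells with a transcript and less of it per cell cannot be told apart.

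As background, the proteasome is a barrel whose inner rings carry the catalytic subunits PSMB5, PSMB6 and PSMB7. In cells exposed to interferon, newly built barrels take PSMB8, PSMB9 and PSMB10 in their places, which alters the peptides that are cut, and such a barrel is called an immunoproteasome. PSME1 and PSME2 form the PA28 ring that opens the barrel. The TAP1 and TAP2 heterodimer pumps peptides into the endoplasmic reticulum, where ERAP1 trims them and TAPBP (tapasin) bridges the transporter to empty class I molecules. NLRC5 is a transactivator of class I genes and of several genes of this pathway. In fibroblasts the inducible subunits are known to be low at rest and to respond to interferon.

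The promoters of these genes are shown first, because most hold the same short motif. Windows of 300 bases, from 250 before the annotated start to 50 from it, were read from RefSeq (GRCh38.p14) for 9 of the 10 genes. NLRC5 had no entry. The core of the interferon-stimulated response element (ISRE), bound by interferon regulatory factors, was searched as GAAANNGAAA on both strands. It was found for 8 of the 9 genes. Of all 27305 genes with a window 4.38% held it, as did 391 of 9358 kept genes (4.18%), 31 of 74 genes that rose (41.9%) and 1 of 44 that fell. These windows are printed as 40 bases on the gene's strand, 5′ to 3′, with the matched bases in capitals:
PSMB8 (chr6:32844027-32844066, minus strand): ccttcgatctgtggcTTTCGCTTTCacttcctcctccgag
PSMB10 (chr16:67936847-67936886, minus strand): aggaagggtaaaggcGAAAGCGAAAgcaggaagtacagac
PSME1 (chr14:24136184-24136223, plus strand): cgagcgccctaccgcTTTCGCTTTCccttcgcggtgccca
PSME2 (chr14:24146614-24146653, minus strand): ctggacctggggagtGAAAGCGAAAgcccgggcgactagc
ERAP1 (chr5:96807919-96807958, minus strand): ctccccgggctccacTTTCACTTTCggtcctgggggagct
TAP1 (chr6:32853811-32853850, minus strand): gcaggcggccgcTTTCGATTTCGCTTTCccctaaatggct
TAP2 (chr6:32838773-32838812, minus strand): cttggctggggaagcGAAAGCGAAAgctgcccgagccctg
TAPBP (chr6:33314071-33314110, minus strand): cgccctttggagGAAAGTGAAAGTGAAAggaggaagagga

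Counted from 0 at the start, the matches of 7 genes lay between -58 and 14, and those of TAP1 lay further out, at -134 to -119. TAP1 and TAPBP each held 2 overlapping matches, and no match overlapped one of another motif searched. TAP1, PSMB8 and ERAP1 each have 2 annotated windows, of which 1 held the motif. The match is a stretch of letters and shows no binding. Among the constitutive barrel and cap subunits, 2 of 27 genes with a window held the motif, PSMA4 and PSMB4.

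PSMB9 was the member with a window and no match. Its start faces that of TAP1 across 487 bases, and the windows of the pair share 13 bases at their outer ends. The TAP1 matches lie 354 bases before the PSMB9 start, beyond the PSMB9 window. The stretch before the TAP1 start (chr6:32853705-32853954, minus strand) is shown because it lies between the starts of both genes. It adjoins the start of TAP1 only and covers part of the 487 bases. Its capitals mark the ISRE core and, nearer TAP1, the letters GGGACTTTCC of an NF-kappa-B type motif, at -72 to -63:
TAP1 upstream: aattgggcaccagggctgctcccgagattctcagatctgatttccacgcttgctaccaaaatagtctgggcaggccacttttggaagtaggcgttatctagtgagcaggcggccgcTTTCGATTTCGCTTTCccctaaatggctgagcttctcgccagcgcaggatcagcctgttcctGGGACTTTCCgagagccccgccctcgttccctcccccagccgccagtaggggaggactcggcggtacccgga
The NF-kappa-B letters, searched on both strands, were in 0.227% of all genes with a window, in 24 of 9358 kept genes (0.256%) and in 1 of these 9. The gamma-activated site, a motif of the interferon gamma response, was searched as TTCNNNGAA. It was in windows of TAP1 and PSMB8, that is 2 of 9 genes, against 9.38% of all genes with a window and 8.79% of kept genes. Among the constitutive barrel and cap subunits, 5 of 27 genes with a window held it (18.5%), PSMB5 among them. The PSME3 window held it as well.

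**Figure D1:**
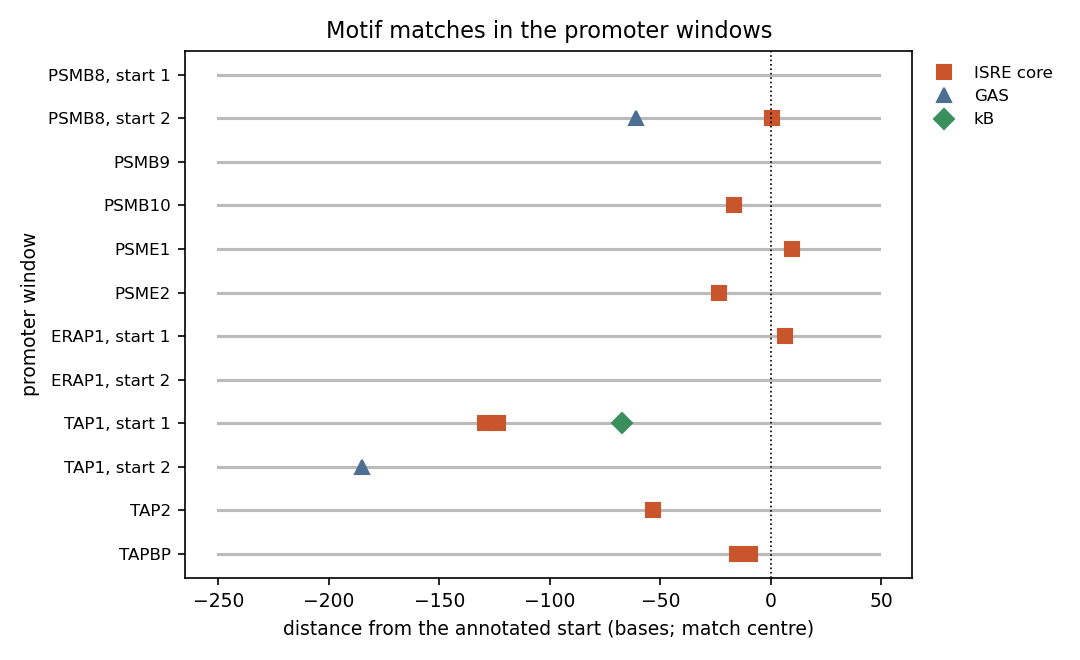
Matches to 3 motifs (ISRE core, gamma-activated site GAS, NF-kappa-B type kB) in RefSeq promoter windows of 9 genes, by distance in bases of the match centre from the annotated start. ISRE core matches sit close to the start in 7 genes, those of TAP1 start 1 lie at -134 to -119, and the PSMB9 row is empty.

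As a check of the labels, FOXA2 was at 4.82 FPKM uninduced and 104 FPKM induced. All 10 fibroblast markers were expressed, from 58.1 to 2098 FPKM uninduced and from 47.3 to 905 FPKM induced. Their levels differed between the columns: 7 were lower induced, where 46.3% of kept genes were, and 3 higher. The median log2 difference of the 10 was -0.57. Of them 3 were at least 2-fold lower and 2 at least 2-fold higher, and none rose or fell. Leukocytes carry immunoproteasomes at rest. Of 18 blood cell markers, all of leukocytes except the red cell gene HBB, 16 were under 1 FPKM in both columns. HBB was listed at 0 in both. Of the 18, 11 were listed at 0 uninduced and 10 induced, and their summed level was 2.11 and 4.05 FPKM. The T cell marker CD3E, the B cell marker MS4A1 and the macrophage marker CD163 were listed at 0 in both columns. The highest, CD14, was at 0.823 and 2.15 FPKM, followed by PTPRC at 0.547 and 1.30 FPKM, and the part of this signal in the results was not tested. All 8 endothelial and keratinocyte markers were under 1 FPKM in both columns.

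All 10 members had a higher value induced, against 53.7% of the 14319 kept genes, and 7 of 10 were at least 2-fold higher, against 9.2%. TAP1 alone rose, 1 of 10, where 0.726% of kept genes rose, and none fell, where 0.454% of kept genes fell. Since the members were selected on these columns, nothing is read from these counts. Their median log2 difference was 1.26, against 0.05 for all kept genes. Among the 6235 kept genes with mean levels in the members' range (16.6 to 180 FPKM) the median was -0.09 and 5.69% were at least 2-fold higher. The bounds were wide. In the median member the upper bound exceeded its value by 104% uninduced and 102% induced, close to the 101% of all kept genes uninduced. The lower bound was 0 for 5 members uninduced and 7 induced.

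**Figure D2:**
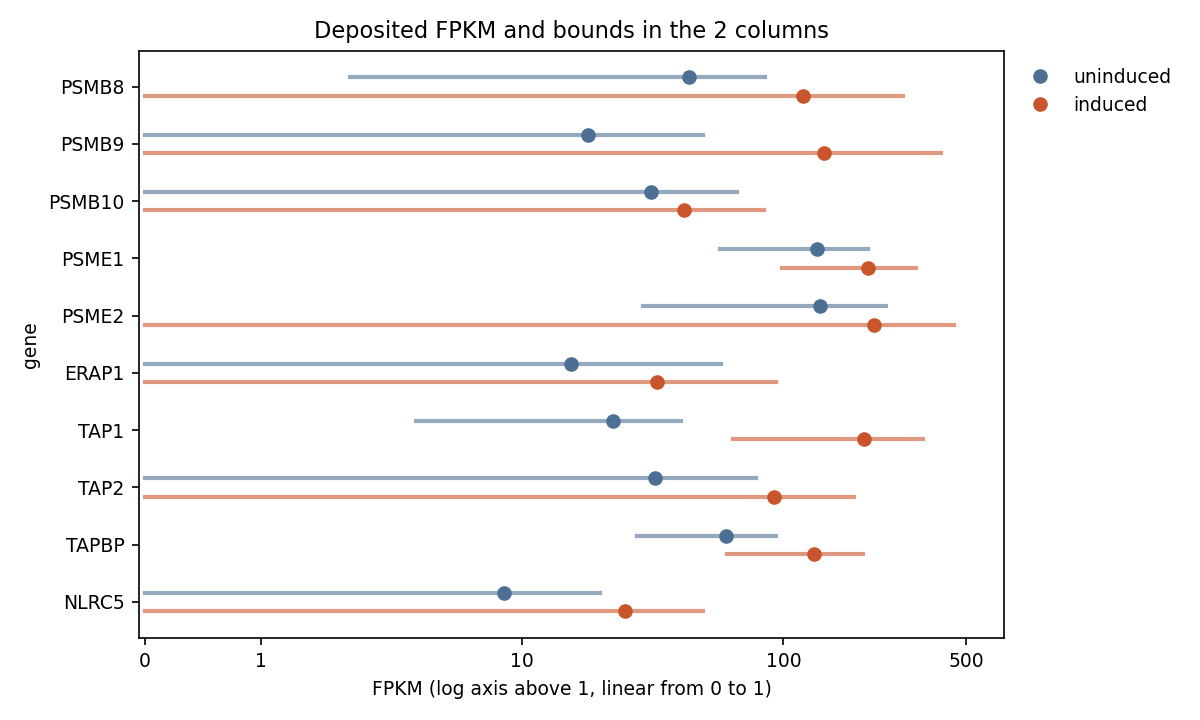
FPKM (points) and deposited bounds (lines) of the 10 genes in the uninduced and induced columns, on an axis that is linear from 0 to 1 and logarithmic above. Every induced point lies to the right of the uninduced one, and the bounds are apart for TAP1 alone.

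Of the catalytic subunits, PSMB9, which replaces PSMB6, differed most. PSMB9 was at 17.9 FPKM uninduced (bounds 0 to 49.2) and 143 FPKM induced (0 to 402). That is a ratio of 8.0 and a log2 difference of 2.93, larger than for 99.3% of kept genes, and the bounds overlap because the induced lower bound is 0. PSMB8, which replaces PSMB5, was at 43.7 FPKM (2.19 to 85.2) and 119 FPKM (0 to 287), a ratio of 2.72. PSMB10, which replaces PSMB7, had the smallest difference of all members, from 31.2 FPKM (0 to 66.3) to 41.6 FPKM (0 to 84.0), a ratio of 1.33. Uninduced, PSMB9 was the lowest of the inducible subunits and PSMB8 the highest. Induced, PSMB9 had the highest value and PSMB10 the lowest, and the bounds of all 3 overlapped in each column. The ratio of PSMB9 to PSMB10 was 0.572 uninduced and 3.44 induced.

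The constitutive partners went the other way in value. PSMB5 was at 146 FPKM (67.4 to 224) and 109 FPKM (42.8 to 175). PSMB6 was at 154 FPKM (67.8 to 240) and 96.4 FPKM (36.6 to 156). PSMB7 was at 188 FPKM (88.8 to 287) and 120 FPKM (51.1 to 189). Their log2 differences were -0.42, -0.67 and -0.64, all with overlapping bounds. FPKM is scaled to length, so the partners can be set side by side within a column, and scaling a whole column does not alter the comparison.

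PSMB9 made up 10.4% of the summed FPKM of PSMB9 and PSMB6 uninduced and 59.7% induced. PSMB8 made up 23.1% of its pair with PSMB5 and then 52.2%. PSMB10 made up 14.2% of its pair with PSMB7 and then 25.7%. Over all 3 pairs the inducible subunits held 16.0% of the transcript level uninduced and 48.3% induced. The sum of the 3 pairs was 580 and 629 FPKM. In the induced column PSMB9 and PSMB8 thus exceeded their constitutive partners in value, and PSMB10 did not. The bounds allow wide shares. For PSMB9 they run from 0% to 42.1% uninduced and from 0% to 91.7% induced. For PSMB8 they run from 0.971% to 55.8% and from 0% to 87.0%. For PSMB10 they run from 0% to 42.8% and from 0% to 62.2%. Transcript shares are not shares of assembled barrels, which were not measured.

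**Figure D3:**
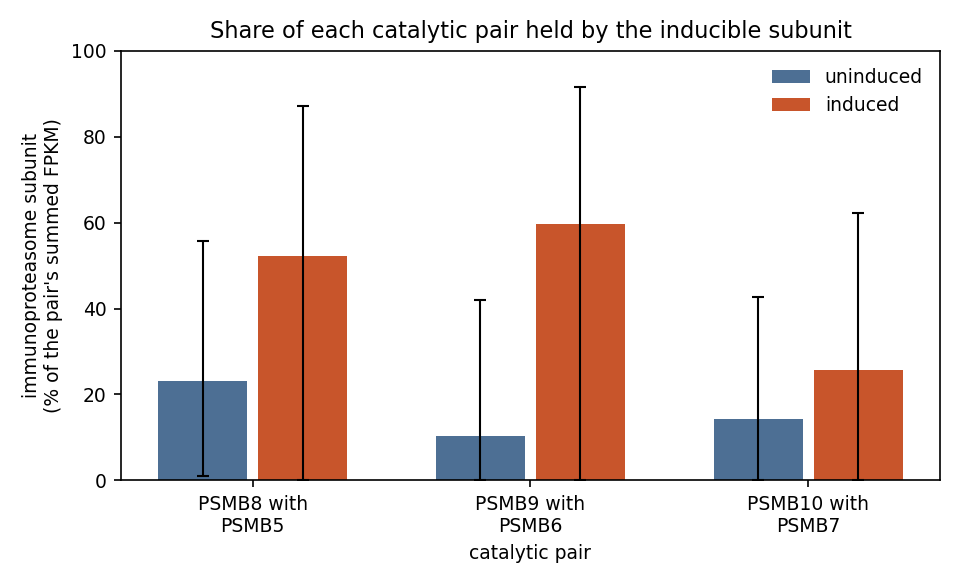
Inducible subunit as a percent of the summed FPKM of each catalytic pair, in the uninduced and induced columns; black lines show the range the deposited bounds allow. The PSMB9 bar goes from 10.4% to 59.7% and the PSMB10 bar from 14.2% to 25.7%, with overlapping ranges in every pair.

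The PA28 activator genes were already abundant at rest. PSME1 was at 134 FPKM (57.1 to 211) and 210 FPKM (98.7 to 321). PSME2 was at 138 FPKM (29 to 247) and 223 FPKM (0 to 451). Their ratios of induced to uninduced were close, 1.57 and 1.61, and the level of PSME1 relative to PSME2, its partner in the ring, was 0.971 uninduced and 0.942 induced. PSME3, which forms a separate nuclear PA28 ring, was lower in value, at 160 FPKM (42.5 to 278) and 96.0 FPKM (3.94 to 188). PSME1 relative to PSME3 was 0.837 and then 2.18, and PSME2 relative to PSME3 was 0.862 and then 2.32. PSME4, a further activator (PA200), was higher in value, at 33.0 FPKM (11.6 to 54.3) and 51.7 FPKM (15.04 to 88.4), a ratio of 1.57 with overlapping bounds. PSMF1, an inhibitor of the proteasome, was at 92.8 and 90.0 FPKM.

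TAP1 was the member whose bounds separated. It rose from 22.2 FPKM (3.92 to 40.5) to 203 FPKM (64.2 to 341). Induced was 9.13 times uninduced, and the induced lower bound 1.59 times the uninduced upper bound. Its log2 difference was 3.13, larger than for 99.5% of kept genes. TAP2, the other chain of the transporter, was at 32.1 FPKM (0 to 78.8) and 92.3 FPKM (0 to 187), a ratio of 2.87. TAP1 was thus below TAP2 uninduced and above it induced, with a TAP1 to TAP2 ratio of 0.691 and then 2.20. The bounds of the chains overlapped in both columns. TAPBP, which holds class I molecules at the transporter, was at 60.5 FPKM (27.6 to 93.4) and 131 FPKM (60.6 to 201), a ratio of 2.16. Its bounds were the narrowest of the members relative to its value uninduced, and still overlapped.

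ERAP1, the trimming enzyme, was at 15.4 FPKM (0 to 57.5) and 32.8 FPKM (0 to 93.6), a ratio of 2.12. Its uninduced upper bound lay 273% above the value, the widest of the members. Of 8 other trimming peptidases 1 rose, LAP3, a cytosolic leucine aminopeptidase, from 42.5 FPKM (16.8 to 68.1) to 149 FPKM (70.6 to 227). None fell, and 4 were higher and 4 lower in value. ERAP2, the close relative of ERAP1, was at 11.7 FPKM (0.793 to 22.6) and 27.5 FPKM (3.64 to 51.4).

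NLRC5, the transactivator, was the least abundant member. It was at 8.48 FPKM (0 to 19.8) and 24.7 FPKM (0 to 49.4), a ratio of 2.91 with overlapping bounds. CIITA, its class II relative, was at 0.0622 and 0.0325 FPKM, under the filter. Of the other 7 members of the list of factors that NLRC5 and CIITA work with at the promoter, all were kept and none rose or fell. RFXANK was at 30.0 and 29.6 FPKM and NFYC at 24.8 and 28.0 FPKM. RFX5, at 11.6 and 25.8 FPKM, was the only one at least 2-fold higher.

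By position, the 5 members in the major histocompatibility complex on chromosome 6 had log2 differences from 1.10 to 3.13, with a median of 1.49. The 5 on chromosomes 5, 14 and 16 ran from 0.40 to 1.44, with a median of 0.69. PSMB8, PSMB9 and TAP1 share 1 span in the table (hg19, chr6:32808494-32827362), together with the noncoding TAPSAR1 at 2.68 and 9.83 FPKM. The libraries keep no strand, and PSMB9 lies on the opposite strand to PSMB8 and TAP1. Reads where these genes overlap may therefore not be assigned to 1 of them with certainty. PSME2 shares its span (chr14:24612574-24636611) with IRF9, at 30.0 and 123 FPKM, and RNF31, at 22.4 and 42.8 FPKM. ERAP1 lies in a span of 923 kb with CAST and ELL2, the latter at 74.4 and 36.4 FPKM. PSMB10 shares its span with PSKH1, at 14.2 and 21.3 FPKM, and CTRL, at 5.36 and 9.30 FPKM, and PSME1 with EMC9, at 19.3 and 11.4 FPKM. The part of these neighbours in the values was not tested. TAPBP and NLRC5 shared their spans with no other kept row, and TAP2 only with a second row of its own symbol. For TAP2, TAPBP and NLRC5 the log2 differences were 1.49, 1.10 and 1.44, all with overlapping bounds.

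The chromosome 6 members also have rows on alternative haplotype sequences. All 7 further rows of TAP1, of PSMB8 and of PSMB9 and all 4 of TAPBP were listed at 0 in both columns. Of 8 further rows of TAP2, 7 were at 0. The other one is not on a haplotype sequence: it lies in the same chromosome 6 span as the TAP2 row used, at 0.000129 and 1.32 FPKM, and so passed the filter. Summing all rows of a symbol moved the log2 difference of TAP2 from 1.49 to 1.51 and that of no other member.

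The rest of the proteasome was lower in value. Of 32 constitutive subunits of the barrel and the cap, all were below 0, where 46.3% of kept genes were, with log2 differences from -1.46 to -0.14 and a median of -0.59. None of the 32 rose or fell. After either rescaling of the columns (to equal sums, or by quantiles) 31 were below 0 and PSMA4 above. Genes as abundant as these were also lower: of 2205 kept genes between 48.9 and 232 FPKM in mean, 67.4% were below 0, with a median of -0.24. In the barrel PSMB4 was at 201 and 144 FPKM and PSMB1 at 178 and 147 FPKM. In the cap PSMD2 was at 340 FPKM (0 to 937) and 123 FPKM (0 to 386), and PSMD8 at 151 and 106 FPKM. All 5 assembly chaperones were below 0, and none fell. POMP, which is needed to build both kinds of barrel, was at 126 FPKM (59.1 to 194) and 77.9 FPKM (33.0 to 123), and PSMG2 was at 61.6 and 49.3 FPKM.

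**Figure D4:**
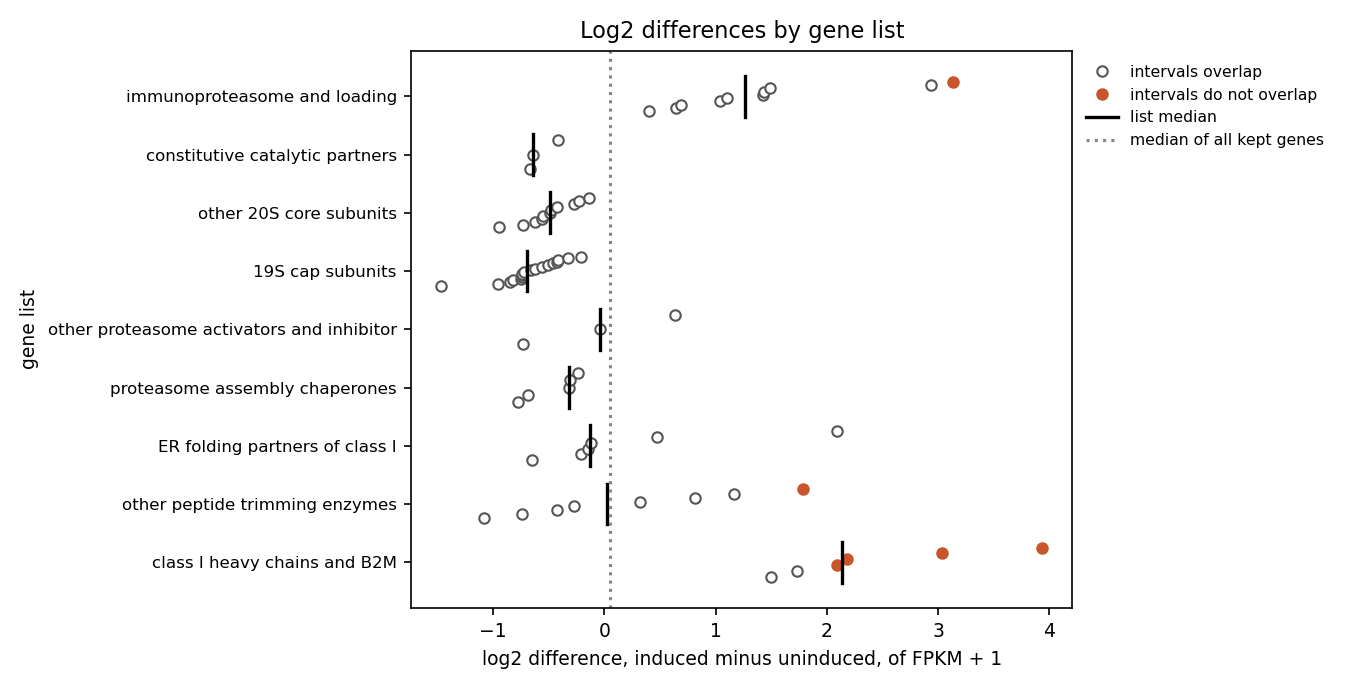
Log2 differences (induced minus uninduced, of FPKM + 1) of kept genes by list, each point 1 gene, with list medians as black bars and the median of all kept genes as a dotted line. The immunoproteasome and loading genes lie from 0.40 to 3.13 and the constitutive barrel and cap subunits from -1.46 to -0.14, with filled points for genes whose bounds do not overlap.

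The endoplasmic reticulum partners of the loading complex did not share one direction. Of 6, none rose or fell, 2 were above and 4 below 0. The 4 comprised the chaperone CALR at 628 and 541 FPKM and the thiol oxidoreductase PDIA3 at 376 and 341 FPKM, with CANX and UGGT1. With equal column sums CANX and PDIA3 were above 0, and after quantile normalization CALR, CANX and PDIA3 were. TAPBPL, a relative of tapasin that edits peptides, was at 5.33 FPKM (0 to 12.9) and 25.9 FPKM (0.584 to 51.2), a log2 difference of 2.09 with overlapping bounds.

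Among the class I chains that receive the peptides, HLA-F, HLA-B and HLA-C rose, with log2 differences of 3.93, 3.03 and 2.09. HLA-B rose from 111 FPKM (51.6 to 171) to 916 FPKM (311 to 1521). HLA-E and B2M were higher with overlapping bounds, and HLA-G was under the filter. Of 13 kept genes that carry interferon signals to these promoters 1 rose, STAT2, from 31.1 FPKM (8.72 to 53.5) to 172 FPKM (65.7 to 279). IFNG, the gene of interferon gamma, was listed at 0 in both columns, and IFNB1 was listed at 0 uninduced and 1.17 FPKM (0 to 2.67) induced.

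Over the 2 columns, the genes outside these lists with levels nearest to TAP1 were TRIM22 (23.4 and 194 FPKM), IFI35 (18.7 and 197 FPKM) and LGMN (25.05 and 168 FPKM), at Euclidean distances of 0.10, 0.24 and 0.32 on the log2 scale. Nearest to PSMB9 were SECTM1 (13.8 and 136 FPKM, distance 0.35), IFI35 (0.46) and LGMN (0.52). IFI35, LGMN and SECTM1 rose, and the bounds of TRIM22 overlapped. With 2 values per gene this likeness covers level and difference only.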

How the data were processed

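RNA of BJ-5ta fibroblasts was measured with unstranded TruSeq libraries on an Illumina HiSeq, per the labels' protocols. The submitters' processing notes name TopHat and hg19. Which program computed the values, and whether a column combines both samples, is not given in the sources used here. Values are FPKM with lower and upper bounds, per the file headers, as the authors deposited them. Column names give the group; 3 further value columns match no sample and were not used. Table starts count from 0 (18545 of 22447 unshared spans then match gene lengths in GENCODE) and were raised by 1.

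Of 63651 rows, 14319 reached 1 FPKM in at least 1 column and were kept; 3 of these had malformed bounds and were never called. The pseudocount was 1. No count or sample-level test could be run on 1 value per group. Total reads are unknown. Among 2973 low genes with 1 start the most frequent ratio of induced to uninduced values was 0.86, which would make the induced column 1.16 times as deep if that is the worth of 1 fragment.

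Members, companion lists and tests were chosen with earlier results of these data known. Named genes were the members, FOXA2, up to 4 genes per companion list that rose or fell (otherwise the 2 most abundant), PSMB5, PSMB6, PSMB7, PSME3 and, for TAP1 and PSMB9, the 3 nearest genes. All other genes (such as ERAP2, RFX5, CIITA, TAPBPL, IFNG, IFNB1, PSMA4, HLA-DMA, absent markers and neighbours in shared spans) were named after their values were seen, and some genes of the companion lists are not reported here. Promoters came from RefSeq. Alternatives were 2 column scalings, 2 filters, 2 pseudocounts, summed rows, the interval of the difference and members without shared spans. Scripts used Python 3.11.15, pandas 2.3.3 and NumPy 2.4.6 and were tested on simulated data.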

Additional observations from a re-analysis of the deposited data

How the results depend on the processing

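No paired analysis was possible because each group has a single column, with samples not separated; leaving out a replicate was not run for the same reason. Under every alternative run on all 10 members, TAP1 was the only member that rose, none fell, and all 10 stayed above 0. The median log2 difference of 1.26 became 1.46 after scaling both columns to equal FPKM sums, 1.31 after quantile normalization, and 1.28 with a pseudocount of 0.1 and also with none. That scaling took the kept genes' own median from 0.05 to 0.23, so that the members' median relative to it changed little. With the 7 members that share a span with another symbol left out, an alternative chosen after seeing the data, 0 of 3 rose and the median was 1.44, since TAP1 is among those left out.

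After quantile normalization the share of PSMB8 in its pair was 23.9% uninduced and 52.1% induced, that of PSMB9 11.3% and 59.5%, and that of PSMB10 14.9% and 24.9%. PSME1 relative to PSME3 was 0.834 and 2.16, and PSME2 relative to PSME3 was 2.29 induced. In the companion lists 6 genes rose as deposited, 8 after scaling to equal sums or by the interval of the difference, and 9 after quantile normalization. The width of the bounds limits every comparison here, and an overlap does not show that a gene stayed the same.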

Other observations

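Genes of the class II pathway, which presents peptides from endosomes, were mostly undetected. Of 13, 3 were kept, and 9 were listed at 0 uninduced and 6 induced. IFI30, a lysosomal thiol reductase, was at 1.52 FPKM (0 to 11.4) uninduced and 82.1 FPKM (0 to 172) induced. CTSS, the protease cathepsin S, was at 1.95 FPKM (0 to 4.57) and 35.5 FPKM (1.62 to 69.3). Their log2 differences of 5.04 and 3.63 exceeded that of TAP1, and both had overlapping bounds. The third, HLA-DMA, was at 1.11 and 3.36 FPKM. The class II chain HLA-DRA was listed at 0 and at 0.0929 FPKM, and the invariant chain CD74 at 0 and at 0.370 FPKM.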
